A study of Rattus norvegicus with 458 samples.

Results

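The miR-375 and miR-7 names of the rat miRNA body atlas are described here across 23 tissues. They were all names in the table of mature miRNA counts that read miR-375, miR-7a or miR-7b with any arm suffix, without the precursor names. This gave 8 of 7534 names, namely miR-375-3p, miR-375-5p, miR-7a-5p, miR-7a-1-3p, miR-7a-2-3p, miR-7b and 2 composite names for reads that the processing assigned to a pair of members, "miR-7a-5p;miR-7b" and "miR-7a-1-3p;miR-7a-2-3p". Summed over all samples, miR-375-3p held 2667175 counts, miR-7a-5p 45816, miR-7a-1-3p 12636, miR-7a-2-3p 7066, miR-7b 6919, the 5p composite 370, miR-375-5p 63 and the 3p composite 3.

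The samples came from naïve Sprague Dawley rats of 12 to 13 weeks, with no treatment and no genetic change. All tissues but the dorsal root ganglion came from the same 5 male and 5 female rats. From each rat 19 tissues of both sexes were sequenced as small RNA. These were the brain regions hippocampus, brainstem, cerebrum and cerebellum, the gut parts ileum, jejunum and duodenum, both parts of the stomach (glandular and not), pancreas and liver, adrenal, whole kidney with its medulla and its cortex apart, the muscles biceps femoris and soleus, heart, and whole blood. Testis came from the 5 males, and ovary and uterus from the 5 females. The dorsal root ganglion was sequenced as 2 pools, 1 of each sex, in 10 libraries. The paper states that this RNA was supplied by Takeda Pharmaceuticals. Its pools carry no rat number, and whether they came from the same rats is not given. Library totals lay between 376401 and 17725805 counts, so 1 count was worth 0.0564 to 2.66 CPM (counts scaled to a library total of 1e6), the most in the testis. All tissues were whole pieces: islets and acini were together in the pancreas, and cortex and medulla in the adrenal. Fewer cells of a type and less RNA per cell of that type cannot be told apart in such samples.

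A mature miRNA is cut from a hairpin, as a 5p or a 3p strand, and finds its targets mainly through the seed, bases 2 to 8. miR-375 is best known from pancreatic islets, where it restrains insulin secretion and helps to maintain endocrine cell mass, and it is also present in other endocrine and mucosal epithelial cells. miR-7 is known from neurons and from endocrine cells, is bound at many sites by the circular RNA Cdr1as in brain, and restrains growth signalling in beta cells. The miR-7a-5p strand is made from more than one locus, while the 3p strands differ between these loci.

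The mature sequences are shown because the members differ in their seeds, and because miR-7a and miR-7b are told apart by a single base. They were taken from RefSeq (assembly GRCr8), 5′ to 3′, with the seed in capitals.
miR-375-3p: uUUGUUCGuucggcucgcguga
miR-7a-5p: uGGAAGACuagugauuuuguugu
miR-7b: uGGAAGACuugugauuuuguugu
miR-7a-1-3p: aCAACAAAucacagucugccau
miR-7a-2-3p: cAACAAGUcccagucugccaca
miR-375-5p: gCGACGAGccccucgcacaaacc
miR-7a-5p and miR-7b shared their seed and differed by A10U, counted from 1 at the 5′ end of miR-7a-5p. The miR-375-3p seed occurred in no other member. The miR-375-3p strand lies at chr9:83906591-83906612 on the minus strand. Its hairpin, Mir375, overlaps the annotated genes Cryba2, a lens crystallin gene, and LOC134480387. The miR-7a-5p sequence is annotated at chr17:6278710-6278732 (plus strand), in the hairpin Mir7-1 inside Hnrnpk, a gene for an RNA-binding protein. It is annotated again at chr1:142215818-142215840 (plus strand), in the hairpin that RefSeq names Mir8, inside the long non-coding RNA LOC120099863. The 3p strand of the former locus is miR-7a-1-3p and that of the latter is miR-7a-2-3p. miR-7b lies at chr9:1167464-1167486 (plus strand) in the hairpin that RefSeq names Mir9, which overlaps the pseudogene Rpl35l3.

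Of the 215 libraries, 10 were closer to another tissue than to their label. In these, the median correlation of profiles, computed without the members, was higher for the other tissue by more than 0.05. Those labelled duodenum of rats 2 and 7 lay closest to cerebrum, of rat 4 to hippocampus and of rat 11 to adrenal. Those labelled hippocampus of rats 2, 6 and 7 lay closest to uterus, duodenum and ovary. Those labelled adrenal and uterus of rat 8 and ovary of rat 11 lay closest to duodenum. They were kept under their labels in the main values, and many of the results they touch are also given without them. The libraries left are called in place, and may include some closer to another tissue by 0.05 or less. The summed level of 8 acinar names (the miR-216a, miR-216b, miR-217 and miR-148a arms, which mark acinar cells) was 8936 to 16960 CPM in pancreas and 0.201 to 1.31 CPM in the adrenal libraries in place. With rat 8's library included, none of the 8 was at 0 in every adrenal library, which does not show that each was present in place. The adrenal library of rat 8 held 2223 CPM of them. Pancreas RNA had the lowest RNA integrity number (RIN) values, 4.9 to 6.8 with a median of 6.2, against 7.2 to 9.9 in adrenal, and the part of RNA integrity in the differences between these tissues was not tested.

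miR-375-3p, the abundant strand of its hairpin, was highest in pancreas. Its level in the 10 pancreas libraries was 29656 CPM at the lowest, 38037 at the median and 44607 at the highest, with a mean of 37202.5 ± 4851 (SD, n = 10). There it took 3.72% of all counts and held rank 3 among names. The lowest pancreas library lay above the highest library of every other tissue, which was the uterus of rat 8 at 11842 CPM.

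The adrenal came next at 5634 ± 2039 CPM (SD, n = 10), from 4031 over 5026 to 11160. Its highest value belonged to rat 8, and the 9 libraries in place lay between 4031 and 6210, at 5020 ± 660. Duodenum lay at 65 to 9605 CPM with a median of 5890, where the 4 libraries out of place were the 4 lowest, and the 6 in place gave 7221 ± 1479. Ileum lay at 4508 ± 1065 (3300 to 7005), glandular stomach at 3701 ± 1395 (2274 to 5667) and jejunum at 3667 ± 1048 (2771 to 6274). These mucosal tissues and the adrenal overlapped one another, except that the duodenum libraries in place (5681 to 9605) lay just above all of the glandular stomach. In testis the 5 rats gave 2091, 2787, 3018, 3126 and 3502 CPM.

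A second tier held the kidney (582 ± 261 CPM), its cortex (653 ± 312), its medulla (562 ± 162), liver (392 ± 185) and the non-glandular stomach (258 ± 230), whose values ran from 4.84 to 627. Below them lay brainstem (161 ± 63.0), cerebrum (92.8 ± 28.7) and cerebellum (54.7 ± 21.8). Heart, soleus, whole blood and biceps femoris had medians of 3.51, 3.83, 3.97 and 1.93 CPM. The dorsal root ganglion pools gave 8.47 and 20.6 CPM. The means for uterus, ovary and hippocampus, 2444, 2191 and 1042 CPM, rested on the libraries out of place, and without them they were 93.8 ± 38.6 (n = 4), 430 ± 125 (n = 4) and 87.6 ± 44.5 (n = 7).

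**Figure D1:**
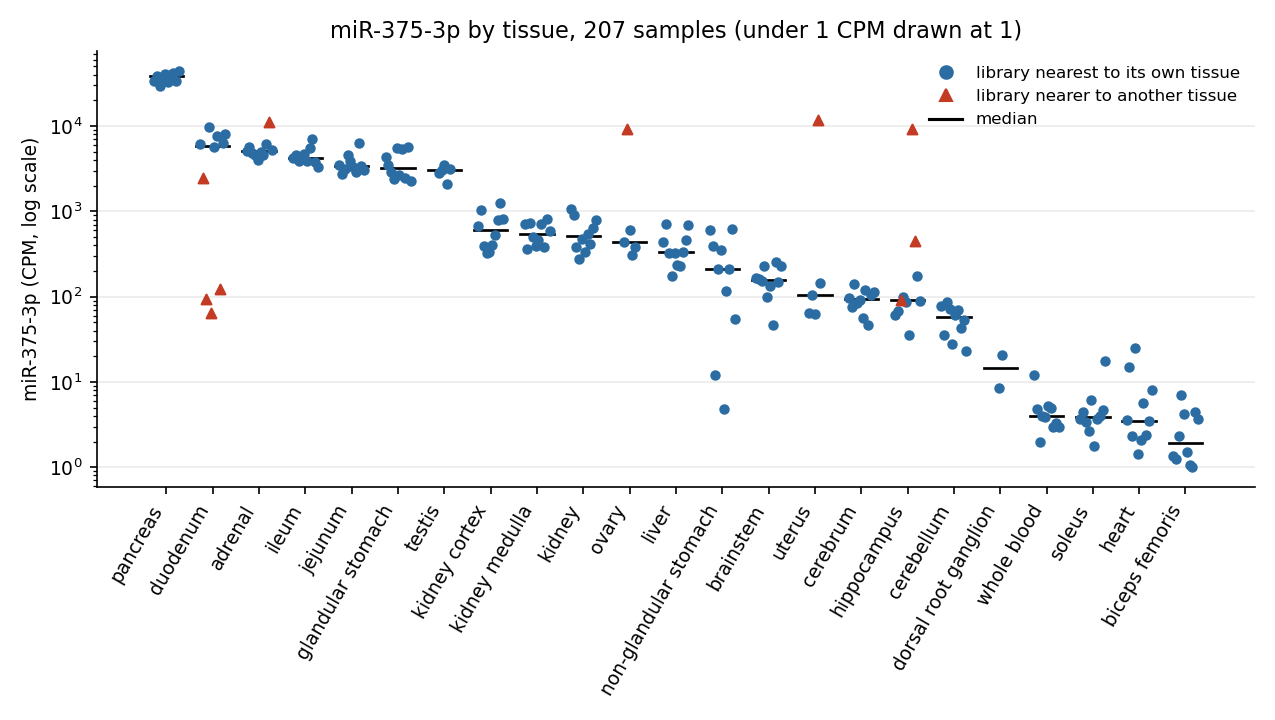
Level of miR-375-3p in every sample, in CPM on a log axis, by tissue. Points are rats or pools (values under 1 CPM are drawn at 1), triangles the libraries closer to another tissue and lines the medians. The 10 pancreas libraries lie between 29656 and 44607 CPM, above all other samples.

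In this order of means, neighbouring tissues were compared within rats by a two-sided exact sign-flip permutation test of log2(CPM + 1), adjusted over the pairs of a member. For every member the order came from the same values, so the pairs were not fixed in advance. Pancreas exceeded adrenal in 10 of 10 rats (mean log2 difference 2.77 ± 0.48 SD, exact p = 0.00195, the smallest 10 rats can give, adjusted p = 0.0195). The 4 steps from adrenal over duodenum, ileum and glandular stomach down to jejunum were not past the threshold (exact adjusted p between 0.188 and 0.934). Jejunum and testis shared 5 rats, 4 of them higher in jejunum, and with 5 rats the smallest exact p is 0.0625, so this step could not pass. Cerebellum lay below cerebrum in 9 of 10 rats (exact adjusted p = 0.0391) and above heart in 10 of 10 (0.0195). Without the libraries out of place the pair of cerebellum and heart was past the threshold (exact adjusted p = 0.0410), and pancreas was compared with duodenum over 6 rats, higher in 6 of 6 (mean log2 difference 2.36 ± 0.21, exact p = 0.0312, adjusted p = 0.262).

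Fits across names used edgeR with upper quartile scaling, in which 6 of the 8 members passed the filter on low counts (miR-375-5p and the 3p composite did not). Over the 23 contrasts of a tissue with the mean of the other 22 tissues, these 6 members gave 138 tests, of which 49 were past the threshold as higher and 22 as lower. The same calls were made in 23.4% and 11.3% of the tests of all names. DESeq2 made 43 and 45. For miR-375-3p, 12 tissues were called higher and 8 lower. The highest log2 fold change was that of pancreas, 7.04 ± 0.37 (SE, edgeR adjusted p = 5.08e-44), followed by ileum (4.47), glandular stomach (4.35), jejunum (4.22), duodenum (3.95), uterus (3.89) and adrenal (3.74). The calls for uterus, ovary (2.08) and hippocampus (1.73) rested on rats 8, 11 and 6, without which the values were -0.64, -0.27 and -1.91. Without the libraries out of place the uterus value was -0.29 and the ovary value 0.16, neither of them called, the hippocampus value -3.51 and the pancreas value 7.56. Duodenum then came second at 5.20, before ileum (5.03), glandular stomach (4.86), jejunum (4.76) and adrenal (4.07). Testis (1.70), kidney cortex (1.49) and liver (0.96), not called with all libraries, were then called higher. With the rat as a block the hippocampus value was 0.90 and no longer past the threshold, while testis, at 1.17 without a block, was called at 1.29.

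Pancreas and adrenal are organs that both hold endocrine cells, and there miR-375-3p and miR-7a-5p went opposite ways. miR-375-3p was 6.60 times higher in pancreas by mean CPM (7.41 times against the adrenal libraries in place), and miR-7a-5p was 7.52 times higher in adrenal (8.24 times in place). In edgeR, 3 of 6 members were past the threshold in this contrast, against 40.8% of all names. miR-375-3p had a log2 fold change of 3.15 ± 0.66 (SE, adjusted p = 1.87e-05) and miR-7a-1-3p of 3.03 ± 0.31 (adjusted p = 3.09e-17), both higher in pancreas. miR-7a-5p fell by 2.45 ± 0.36 on the log2 scale in pancreas relative to adrenal (adjusted p = 1.79e-09). miR-7a-2-3p (-0.76 ± 0.51, adjusted p = 0.236) and miR-7b (-0.21 ± 0.58, adjusted p = 0.848) were not past it, and without rat 8's adrenal and the other libraries out of place miR-7a-2-3p was called, at -0.86 ± 0.38 (edgeR adjusted p = 0.0474). The median log2 fold change of all 1641 names was 0.38 in this contrast (0.09 with TMM scaling), -0.82 between brain and non-neural tissues (-0.44 with TMM), 0.22 between hippocampus and cerebrum, -0.11 between duodenum and jejunum and under 0.1 in size in the others, and each fold change is to be read against it.

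Names known from other cell types moved with these members. Of the acinar list, 8 of 8 were higher in pancreas than in adrenal (median log2 fold change 6.23, against 0.38 over all names), and of the epithelial list (miR-200a-3p, miR-200b-3p, miR-200c-3p, miR-141-3p and miR-429, which mark epithelia) 5 of 5 were higher (median 4.38). The epithelial sum was 21037 to 27042 CPM in pancreas and 4.76 to 13.5 CPM in the adrenal libraries in place, against 11805 in rat 8's adrenal. The islet and neuroendocrine list of 15 names split, with 4 higher, 4 lower and a median of 0.42. miR-153-3p, a neuronal and islet miRNA, was higher in pancreas (log2 fold change 3.82), as were miR-96-5p (2.16), miR-182 (1.53) and miR-34a-5p (0.91). miR-127-3p, an imprinted miRNA, fell by 4.95 on the log2 scale and miR-335 by 1.49, with miR-204-5p and miR-30d-5p also lower. Of the other lists, 3 of 3 intestinal names were lower, but 2 of 3 were higher without the libraries out of place. The neuronal list had 2 of 4 lower, the squamous list 2 of 2 higher, the hepatocyte list 2 of 2 higher, the gonadal list 1 of 2 lower, and the erythroid and smooth muscle lists 0 of 2 and 0 of 2. The part of acinar and epithelial RNA in the members' differences was not tested.

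The scaling of the levels mattered in the pancreas. With the most counted name of each library left out of the total, miR-375-3p rose to 91701 ± 10825 CPM in pancreas, 14251 ± 4611 in glandular stomach and 8267 ± 2408 in adrenal, with pancreas still first. miR-7a-5p was then 29.2 ± 8.8 CPM in pancreas and 134 ± 44.1 in adrenal, still in that order.

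Against glandular stomach, the other digestive organ in which endocrine cells lie within a secretory epithelium, pancreas had 10.1 times the miR-375-3p level. In edgeR, 3 of 6 members were past the threshold, against 27.1% of all names: miR-375-3p (log2 fold change 2.56 ± 0.64 SE, adjusted p = 0.000737), miR-7a-1-3p (1.68 ± 0.29, adjusted p = 5.59e-07) and, lower, miR-7a-5p (-1.07 ± 0.35, adjusted p = 0.0132). By CPM the miR-7a-5p ratio was 0.804, from 11.8 ± 3.8 CPM in pancreas and 14.7 ± 6.6 in glandular stomach, and these groups overlapped. miR-7b (1.13 ± 0.63, edgeR adjusted p = 0.180) was called without the libraries out of place (1.16 ± 0.47, adjusted p = 0.0434). Of the epithelial list 1 of 5 was higher in pancreas (median 0.51), and of the acinar list 8 of 8 (median 7.12, against 0.00 over all names). The islet list had 3 higher and 6 lower.

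Within the stomach the glandular part, lined by secretory cells, was compared with the squamous non-glandular part. There 4 of 6 members were higher in the glandular part, where 6.28% of all names were past the threshold in either direction. miR-375-3p was 14.3 times higher by mean CPM (edgeR log2 fold change 3.13 ± 0.65 SE, adjusted p = 0.000727). miR-7a-5p was 10.5 times higher, at 8.23 to 27.4 CPM against 0.436 to 2.93 CPM, and the groups did not overlap (edgeR log2 fold change 2.60 ± 0.38, adjusted p = 1.07e-07). miR-7a-2-3p (2.58 ± 0.61, adjusted p = 0.00232) and miR-7b (3.32 ± 1.01, adjusted p = 0.0286) were also called, the latter from 0 to 0.821 CPM in the glandular part and 0 to 0.154 in the other. miR-7a-1-3p, at 0.77 ± 0.30 (adjusted p = 0.107), was past the threshold without the libraries out of place (adjusted p = 0.0260). In the same contrast 2 of 2 squamous names (miR-205 and miR-203a-3p) were lower, 2 of 3 intestinal names higher, 4 of 8 acinar names higher and 1 of 5 epithelial names higher, and the summed acinar level in glandular stomach reached 320 CPM in its highest library against a median of 1.12.

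Along the intestine, ileum and jejunum gave 0 of 6 calls in edgeR, 0 at an unadjusted p under 0.05, and 0 by DESeq2, where edgeR called 3.17% of all names. The miR-375-3p log2 fold change was 0.24 ± 0.60 (SE, adjusted p = 0.997), with 4508 and 3667 CPM. Duodenum against jejunum gave 4 of 6 calls (31.3% of all names), all higher in duodenum, for miR-7a-5p (1.22 ± 0.35, edgeR adjusted p = 0.00291), miR-7a-2-3p, miR-7b and the 5p composite. None was left in edgeR without the libraries out of place (0 at an unadjusted p under 0.05), and in the 4 duodenum libraries of that kind miR-7a-5p lay at 61.0 to 438 CPM, against 10.99 to 14.4 in the 6 in place and 7.46 to 15.6 in jejunum. In the libraries in place miR-375-3p was 1.97 times higher in duodenum (log2 fold change 0.42 ± 0.39, edgeR adjusted p = 0.731). The duodenum libraries in place also held 677 to 1518 CPM of the acinar names, which were at or under 2.01 CPM in every jejunum library, and the part of this RNA in their miR-375-3p level was not tested.

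miR-375-5p, the other strand of the hairpin, was close to absent. It had 63 counts in 35 of 207 samples. In pancreas 24 of 1346639 counts of both strands were miR-375-5p, or 0.00178% (95% exact binomial interval 0.00114 to 0.00265, counting error only). In adrenal it had 3 of 318889 counts. Its level was 0 to 1.52 CPM in pancreas and 0 to 0.948 in duodenum, and the share differed in none of 15 pairs of tissues (exact sign-flip test, adjusted p between 0.296 and 1).

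miR-7a-5p was highest in brain and low in pancreas. In cerebrum it lay at 101 CPM at the lowest, 195 at the median and 251 at the highest (188 ± 54.1 SD, n = 10). The 7 hippocampus libraries in place lay at 210 to 450 CPM (331 ± 88.9), overlapping the upper range of cerebrum, while the 3 others had 2.41, 2.93 and 15.6. Brainstem lay at 67.6 to 112 CPM in 9 rats and 373 in rat 9. Cerebellum had 38.7 ± 10.2 CPM (31.2 to 63.9) and the dorsal root ganglion pools 21.0 and 21.3.

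Outside the nervous system, testis (91.8, 107, 107, 117 and 127 CPM) and adrenal were the only tissues with a mean above 15 CPM among libraries in place. The 9 adrenal libraries in place lay at 81.3 to 112 CPM (97.4 ± 11.2) and rat 8 at 12.3. Pancreas had 5.73 CPM at the lowest, 11.4 at the median and 18.5 at the highest, so that it did not overlap with the adrenal libraries in place. Liver (12.3 ± 1.8), jejunum (11.1 ± 2.6), ileum (10.8 ± 2.2) and the duodenum libraries in place (12.3 ± 1.4) lay within the range of pancreas. In the order of all libraries the steps from glandular stomach to liver, pancreas, jejunum and ileum were not past the threshold (exact sign-flip adjusted p between 0.844 and 0.906). In the main order of miR-7a-5p the steps past the threshold were cerebellum over glandular stomach (10 of 10 rats, exact adjusted p = 0.0410) and kidney medulla over whole blood (9 of 10 rats, 0.0410). With the libraries in place, adrenal over cerebellum was too (9 of 9 rats, mean log2 difference 1.31 ± 0.40, exact adjusted p = 0.0273), as was ileum over heart (0.0205).

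**Figure D2:**
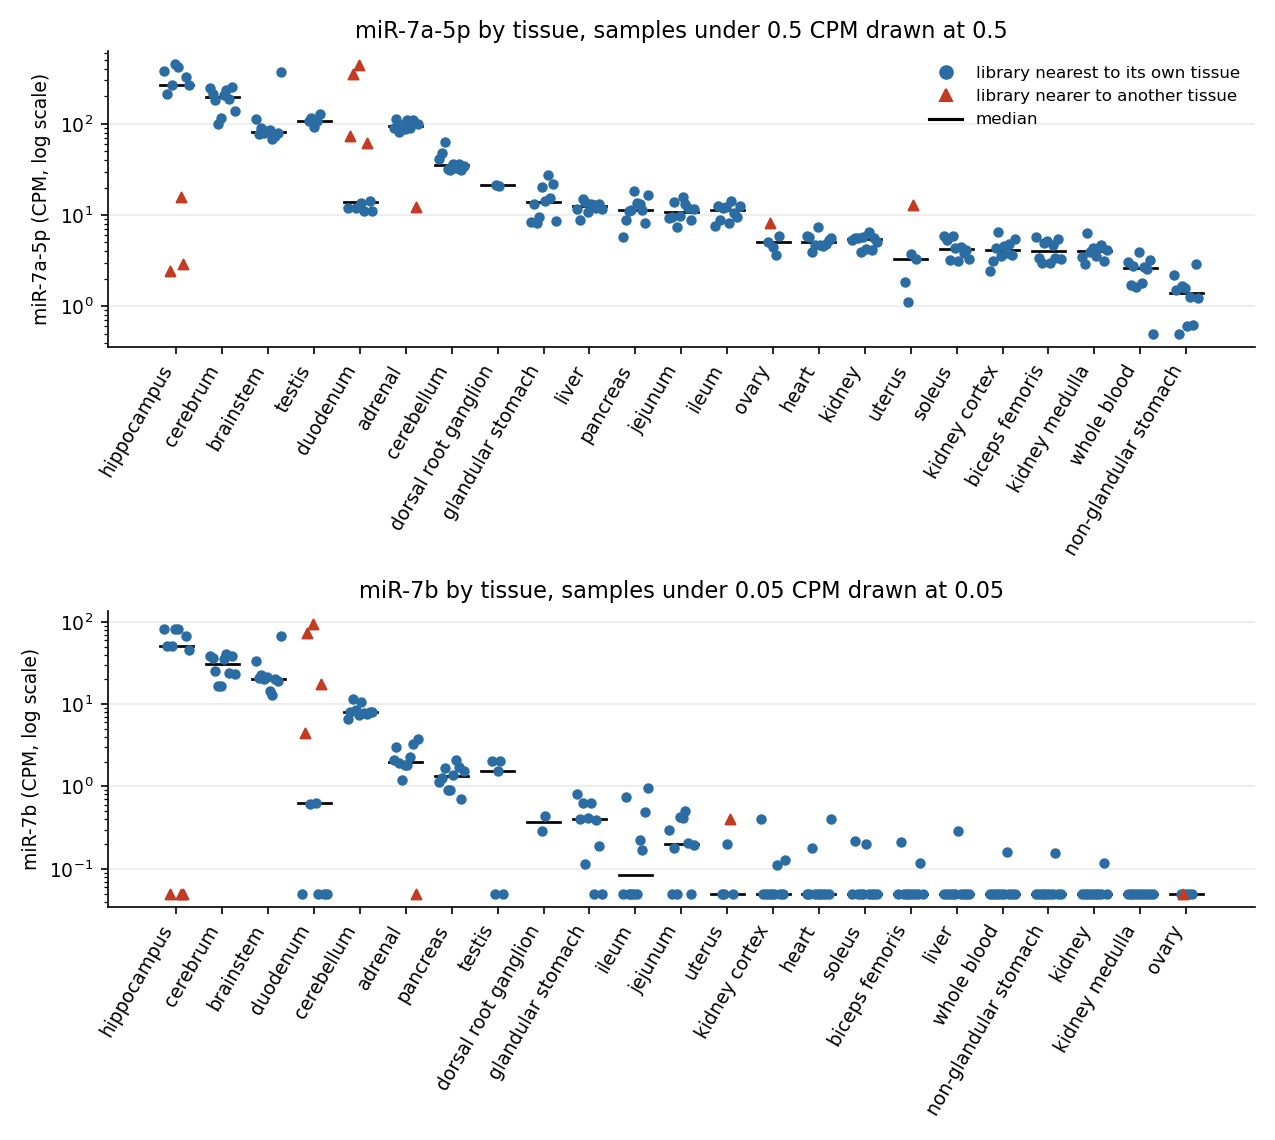
Levels of miR-7a-5p (top) and miR-7b (bottom) in every sample by tissue, in CPM on log axes, with low values drawn at the foot of the axis. Triangles are the libraries closer to another tissue and lines the medians. Both are highest in hippocampus and cerebrum, and miR-7a-5p in the adrenal libraries in place lies at 81.3 to 112 CPM, above the 5.73 to 18.5 CPM of pancreas.

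The mean of the 4 brain regions was compared with the mean of the 18 non-neural tissues. In edgeR 6 of 6 members were past the threshold, 5 higher in brain and 1 lower, where 59.6% of all names were called. The 5 included the 5p composite, which had 156 counts in cerebrum of rat 6 and 44 in brainstem of rat 11. These came mostly from 1 lane, as described below. The ratio of mean CPM was 6.43 for miR-7a-5p (9.46 for the libraries in place), 4.84 for miR-7a-1-3p (5.92), 10.99 for miR-7a-2-3p (20.2) and 19.7 for miR-7b (93.4). In edgeR miR-7a-5p had a log2 fold change of 1.80 ± 0.12 (SE, adjusted p = 1.17e-31) and miR-7b of 5.46 ± 0.23 (adjusted p = 1.73e-54). miR-375-3p was the member lower in brain, with a ratio of 0.0877 (0.0265 in place) and a log2 fold change of -3.12 ± 0.30 (adjusted p = 1.21e-19). The neuronal list was higher for 4 of 4 names (median 6.01), the epithelial list lower for 5 of 5 (median -5.24), and the islet list had 10 higher and 5 lower (median 2.04, against -0.82 over all names).

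Between brain regions the 3p names of the miR-7a loci parted. A difference in output between the loci cannot be told apart here from one in how much 3p strand was kept. miR-7a-2-3p was 42.0 ± 12.1 CPM in cerebrum (22.3 to 60.8) and 2.51 ± 0.90 in cerebellum (1.39 to 4.36), groups that did not overlap (edgeR log2 fold change -3.50 ± 0.54 SE, adjusted p = 4.86e-08). miR-7a-1-3p was 38.0 ± 5.6 CPM in cerebrum (29.9 to 45.8) and 46.6 ± 3.5 in cerebellum (41.6 to 52.9), which overlapped. It was called higher in cerebellum under upper quartile scaling (0.83 ± 0.28, edgeR adjusted p = 0.0213), but not under TMM scaling. miR-7a-5p was lower in cerebellum (-1.73 ± 0.35, edgeR adjusted p = 3.72e-05). These 3 of 6 members were the calls of this contrast, against 21.5% of all names, and miR-7b (-1.26 ± 0.55, adjusted p = 0.0900) was called as well without the libraries out of place (edgeR adjusted p = 0.00719).

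In brainstem against cerebrum 2 of 6 members were called, against 7.01% of all names. These were miR-7a-1-3p (-1.08 ± 0.28, edgeR adjusted p = 0.00525) and miR-7a-2-3p (-2.24 ± 0.51, adjusted p = 0.000827), both lower in brainstem. miR-7a-5p (-0.97 ± 0.34, edgeR adjusted p = 0.0639) was called with the rat as a block (-0.96, edgeR adjusted p = 0.0455) and without the libraries out of place (-1.01, adjusted p = 0.00133). In hippocampus against cerebrum 2 of 6 were called, against 20.6% of all names, miR-375-3p as higher (5.37 ± 0.73 SE, edgeR adjusted p = 1.78e-10) and the 5p composite as lower. Neither call held without the 3 hippocampus libraries out of place, where miR-375-3p was at -0.16 ± 0.38 (edgeR adjusted p = 0.980), and with the rat as a block 1 of 5 tested members was called. In the libraries in place miR-7b was 2.22 times and miR-7a-5p 1.76 times higher in hippocampus, at edgeR adjusted p = 0.172 and 0.149.

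miR-7b, the paralog with another base 10, was at or near 0 outside the nervous system, with few exceptions. Its level was 29.4 ± 9.2 CPM in cerebrum, 25.2 ± 15.6 in brainstem, 8.44 ± 1.52 in cerebellum and 65.4 ± 16.8 in the hippocampus libraries in place. Adrenal (2.36 ± 0.83 in place), pancreas (1.33 ± 0.43, from 0.713 to 2.09) and testis (1.13 ± 1.05) came next, and glandular stomach had 0.360 ± 0.282. Within the nervous system the dorsal root ganglion pools were low, at 0.289 and 0.443 CPM. Kidney medulla and ovary had 0 counts, and the other tissues outside the nervous system had means under 0.3 CPM among libraries in place. In the order of its means cerebellum lay above adrenal in 10 of 10 rats (exact sign-flip adjusted p = 0.0410). Adrenal lay above pancreas in 9 of 9 rats in place (exact adjusted p = 0.0273) and in 9 of 10 rats in all (0.383).

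Because the 5p sequence is the same at both miR-7a loci, only the 3p names can be assigned to a locus. Their shares were taken within each library with at least 20 counts. These shares also depend on how much of each 3p strand was kept, which was not tested. Shares were compared between tissues of the same rat, by two-sided exact sign-flip permutation tests adjusted over 45 pairs, of which 19 were past the threshold. In adrenal 68.7 ± 7.2% of the 3p counts were miR-7a-2-3p (n = 9 in place, 58.2 to 78.6%), and in pancreas 10.004 ± 4.6% (n = 10, 2.56 to 17.6%). The groups did not overlap. With all libraries the difference was -53.0 ± 17.99 percentage points (lower in pancreas in 10 of 10 rats, exact p = 0.00195, adjusted p = 0.0160).

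Cerebrum (51.7 ± 7.8%) and hippocampus (58.0 ± 4.9% in place) were nearer to adrenal, and glandular stomach (33.5 ± 8.3%) and brainstem (29.9 ± 9.4%) lay between. Jejunum (7.03 ± 2.80%), ileum (10.3 ± 4.9%) and cerebellum (5.06 ± 1.57%) were at the level of pancreas. Liver had 0 of 572 and kidney 0 of 297 counts of miR-7a-2-3p, which allows a share of up to 0.643% and 1.23% (exact 95% limits, counting error only). Pancreas lay below cerebrum by 41.6 ± 9.3 percentage points (10 of 10 rats, exact adjusted p = 0.0160) and below glandular stomach by 23.4 ± 10.6 (9 of 9 rats, 0.0160), and its differences from jejunum (3.54 ± 6.89, exact adjusted p = 0.338) and ileum (-0.21 ± 5.57, exact adjusted p = 1) were not past the threshold. Adrenal against cerebrum gave 11.4 ± 21.97 points (8 of 10 rats, exact adjusted p = 0.296). Without rat 8, whose adrenal library was out of place, adrenal lay above cerebrum by 17.3 ± 12.3 points (8 of 9 rats, exact adjusted p = 0.0207).

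The share of miR-7b in miR-7a-5p plus miR-7b set pancreas apart from the other non-neural tissues. It was 10.03 ± 3.2% in pancreas (n = 9, from 4.69 to 13.8%, resting on 47 of 483 counts in all 10 rats), 2.35 ± 0.70% in the adrenal libraries in place, 2.98 ± 3.00% in glandular stomach and 1.83 ± 1.57% in jejunum. In brain it was 13.5 ± 1.1% in cerebrum, 16.6 ± 1.6% in hippocampus, 18.3 ± 2.9% in cerebellum and 19.2 ± 2.9% in brainstem. Pancreas exceeded adrenal by 7.94 ± 2.93 percentage points (9 of 9 rats, exact p = 0.00391, adjusted p = 0.0160), glandular stomach by 7.71 ± 3.30 and jejunum by 8.35 ± 3.70 (9 of 9 rats each, exact adjusted p = 0.0160), and ileum by 8.51 ± 3.60 (8 of 8 rats, 0.0207). Against cerebrum it was -3.51 ± 3.48 points (7 of 9 rats, exact adjusted p = 0.0703). No pancreas library reached 100 counts of the 2 names together, so that a minimum of 100 left no pancreas value, and none of the tests that remained was past the threshold.

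The share of 3p strands among all miR-7a counts was described without a test, since the strands may be captured unequally and only tissues are set side by side. It was 64.8 ± 8.4% in pancreas (54.5 to 79.6%) and 7.48 ± 0.67% in the adrenal libraries in place (6.65 to 8.59%), with no overlap. Biceps femoris (65.9 ± 6.1%), cerebellum (56.4 ± 6.2%) and liver (53.5 ± 3.8%) were like pancreas, and cerebrum (30.6 ± 4.8%), hippocampus (28.7 ± 5.9%), glandular stomach (27.9 ± 6.1%) and testis (24.1 ± 6.8%) were lower. Adrenal was the lowest of all tissues with such libraries. The tissues named are not all those with a high share. Mean CPM of miR-7a-1-3p and miR-7a-5p was also alike in kidney cortex (5.73 and 4.23), soleus (5.23 and 4.34), kidney medulla (4.35 and 4.09), kidney (5.13 and 5.16) and heart (5.00 and 5.26). By CPM, miR-7a-1-3p lay at 14.4 to 25.2 in pancreas and 1.36 to 3.94 in the adrenal libraries in place, the reverse of miR-7a-5p.

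**Figure D3:**
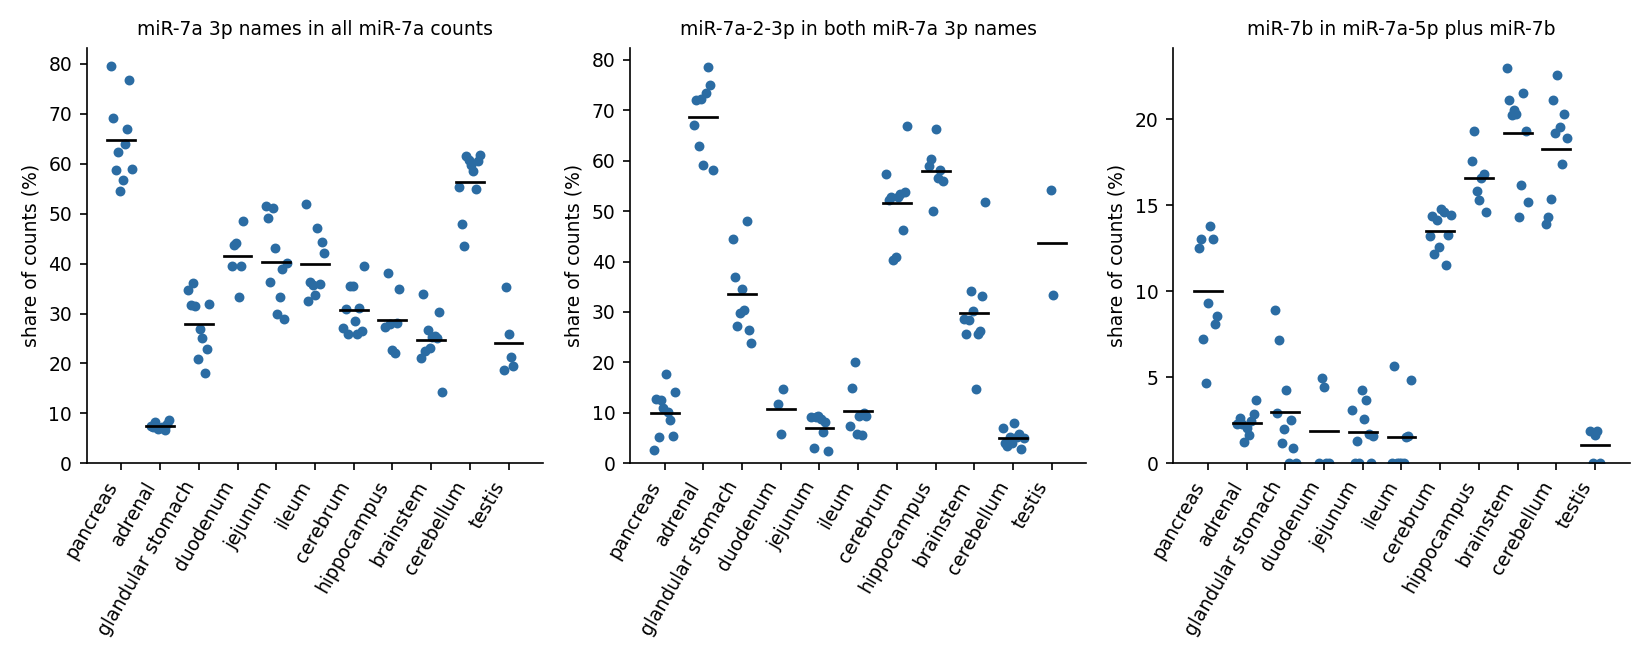
Shares of miR-7 strands and paralogs, in percent, by tissue for libraries in place with at least 20 counts, with points for samples and lines for means. The panels give the 3p names in all miR-7a counts, miR-7a-2-3p in both 3p names, and miR-7b in miR-7a-5p plus miR-7b. Pancreas has means of 64.8, 10.004 and 10.03%, and adrenal 7.48, 68.7 and 2.35%.

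The length forms of miR-7a-5p also differed by tissue. These forms are shown because the most counted sequence was 1 base longer than the RefSeq entry, and because the most counted miR-7a-1-3p sequence started 1 base later and so had another seed.
miR-7a-5p, most counted: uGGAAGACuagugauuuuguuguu
miR-7a-5p, next: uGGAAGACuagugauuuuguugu
miR-7a-1-3p, most counted: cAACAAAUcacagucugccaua
miR-375-3p, most counted: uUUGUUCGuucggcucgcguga
miR-375-3p, next: uUUGUUCGuucggcucgcgugg
The form of 24 bases made up 54.8% and that of 23 bases 29.6% of miR-7a-5p reads over the libraries used for isoforms. The shown miR-7a-1-3p form made up 39.4% of its reads. In miR-375-3p the reference form made up 61.2%, and a form with A22G, counted from the 5′ end, 19.5%.

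These shares come from the isoform table, which was used for 215 of its columns, 1 for each library. In 1 lane of 1 flow cell (C2BUMACXX lane 8, 14 samples), 54.7 to 65.3% of miR-375-3p reads and 51.0 to 60% of miR-7a-5p reads began 1 base earlier than the most counted form, against 0 to 4.8% and 0 to 3.70% in the other 15 lanes. The 14 samples came from 14 tissues, with pancreas rat 5, glandular stomach rat 4, ileum rat 3, duodenum rat 8 and cerebrum rat 9 among them. The levels of miR-375-3p on the 2 flow cells of a sample differed by under 0.5 on the log2 scale in 163 of 169 samples with at least 10 CPM, and those of miR-7a-5p in 78 of 99. The log2 differences ran from -3.65 to 3.73 for miR-375-3p and from -0.96 to 1.76 for miR-7a-5p. The shares of forms that follow are from libraries in place and outside this lane.

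**Figure D4:**
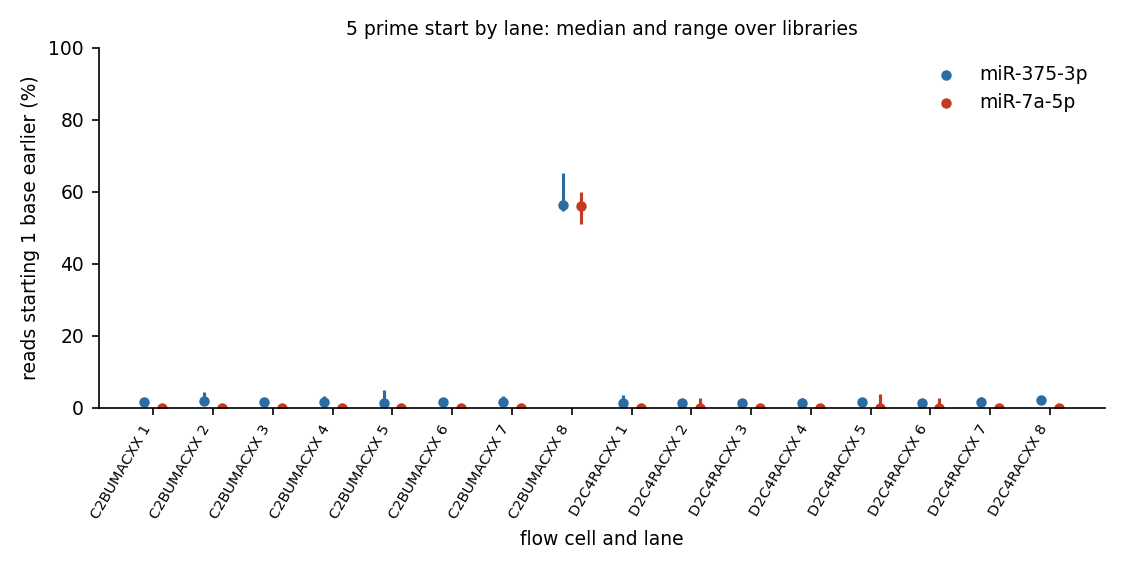
Percent of reads that start 1 base before the most counted form, by flow cell lane, with points for the median over libraries and lines for their range. The shifted lane lies at 54.7 to 65.3% for miR-375-3p, and the other 15 lanes lie at or under 4.8%.

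The form of 24 bases was least frequent in adrenal, with 20.7 ± 1.3% of miR-7a-5p reads (n = 9, 18.5 to 22.8%), where the form of 23 bases made up 45.6 ± 1.4%. It was 31.5 ± 6.1% in pancreas (n = 8, 25 to 40.8%) and 40.8 ± 8.6% in glandular stomach (n = 9). The brain regions had 49.5 ± 3.7% (brainstem), 59.3 ± 2.7% (cerebrum), 61.7 ± 2.1% (hippocampus) and 76.9 ± 4.3% (cerebellum), and ileum, jejunum and liver 62.7 ± 3.9, 69.4 ± 8.8 and 72.1 ± 6.6%. The adrenal and pancreas ranges did not overlap with each other or with those of cerebrum and jejunum.

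In the paired tests adrenal lay below cerebrum by 38.5 ± 3.0 percentage points, below jejunum by 49.2 ± 8.5 and below glandular stomach by 21.4 ± 8.2, in 8 of 8 rats each (exact sign-flip p = 0.00781, adjusted p = 0.0320). Pancreas lay above adrenal by 11.2 ± 7.0 points and below cerebrum by 28.9 ± 4.2 in 7 of 7 rats, both at an exact adjusted p of 0.0502, with 0.0156 the unadjusted value and the smallest that 7 rats allow. With all libraries, pancreas lay below cerebrum by 26.2 ± 16.6 (8 of 9 rats, exact adjusted p = 0.0370), adrenal below cerebrum by 30.7 ± 16.8 (9 of 10, 0.0370) and pancreas above adrenal by 3.61 ± 17.5 (7 of 9, 0.873). The mean length of miR-7a-5p in all libraries was 22.9 bases in pancreas and 22.8 in adrenal, and 23.6 in cerebrum, 23.7 in jejunum and 23.7 in ileum. In all, 29 of 90 tests of form shares and lengths were past the threshold, and 22 of 90 without the lane and the libraries out of place. The count was 8 at a minimum of 100 counts, and 0 without any of rats 2, 3, 4, 6, 7 or 11, where fewer rats raise the smallest exact p.

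**Figure D5:**
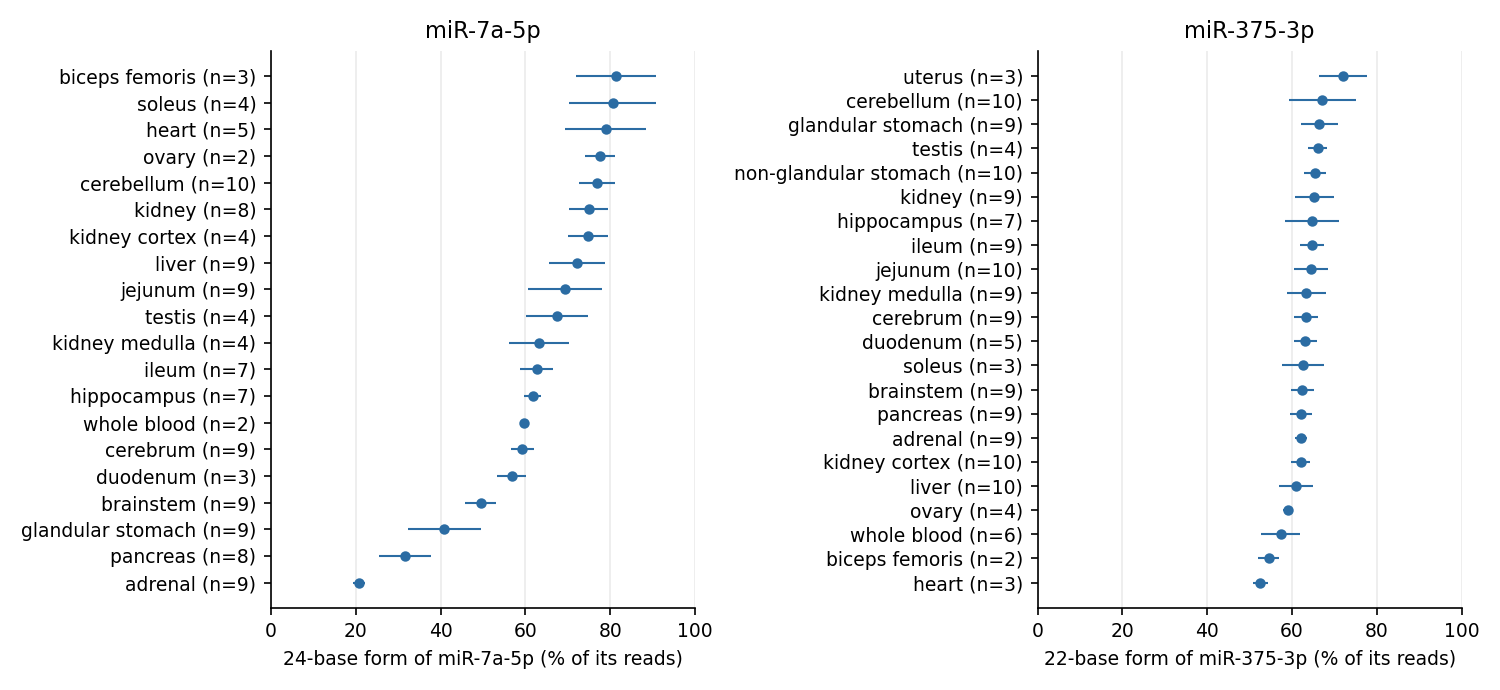
Share of the 24-base form in miR-7a-5p reads (left) and of the 22-base reference form in miR-375-3p reads (right), in percent, as the mean and SD over the libraries in place and outside the shifted lane, for tissues with at least 2 of them. The miR-7a-5p share runs from 20.7% in adrenal to 81.3% in biceps femoris, and the miR-375-3p share from 52.5% in heart to 71.9% in uterus.

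The forms of miR-375-3p varied less. Over 18 tissues with enough reads, 96.4 to 97.8% of reads began at the same base, and the A22G form had tissue means of 13.98 (uterus) to 23.6% (liver), with 19.5 ± 1.8% in pancreas and 21.4 ± 1.3% in adrenal. A form with A22U was a smaller part, at 2.69 ± 0.28% in adrenal (2.38 to 3.24%) and 2.28 ± 0.51% in pancreas (1.63 to 3.15%), against 0.965 ± 0.176% in glandular stomach, 0.691 ± 0.057% in ileum and 0.644 ± 0.089% in jejunum. The adrenal and pancreas ranges overlapped each other and lay above those of the stomach and both gut segments. The form ending at base 21 was most frequent in pancreas, at 3.21 ± 0.96% (2.01 to 5.21%), against 1.64 ± 0.13% in adrenal and 0.509 ± 0.272% in liver. These single-base forms were not among the tested values. Whether base 22 differed in the RNA or through read processing was not tested.

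Between the sexes, 2 of 95 tests of members were past the threshold in edgeR, against 1.49% over all names and tissues, and both rested on libraries out of place. miR-375-3p in hippocampus was lower in females (log2 fold change -4.46 ± 0.86 SE, adjusted p = 3.60e-05), with 168 ± 162 CPM in 5 females and 1917 ± 4113 in 5 males, where rat 6 had 9275. miR-7a-1-3p in duodenum was lower in females (-1.10 ± 0.34, edgeR adjusted p = 0.0338), with 7.18 ± 3.64 and 27.6 ± 27.0 CPM. Without the libraries out of place 0 of 114 tests were past the edgeR threshold and 10 had an unadjusted p under 0.05. In kidney cortex miR-375-3p was 671 to 1236 CPM in the 5 females and 329 to 523 in the 5 males, groups that did not overlap, and the edgeR log2 fold change was 1.39 ± 0.76 (adjusted p = 1), or 1.4 ± 0.46 (adjusted p = 0.202) without the libraries out of place. In liver the ranges were 334 to 718 and 175 to 327 CPM, also without overlap (edgeR log2 fold change 0.92 ± 0.75, adjusted p = 1). The sexes overlapped in whole kidney, with female rat 7 at 418 CPM and male rat 6 at 546. They also overlapped in kidney medulla, with female rat 11 at 360 CPM and male rat 2 at 720. Kidney cortex and liver were singled out after the levels were seen, and how often such groups do not overlap was not tested.

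The names whose levels followed the members most closely over the 23 tissues were taken from 534 single mature names, by the Pearson correlation of log2(mean CPM + 1). The points share libraries and totals, so these are descriptions. For miR-375-3p they were miR-141-3p (r = 0.914), miR-200c-3p (0.900), miR-200b-3p (0.856), miR-141-5p (0.856) and miR-200a-3p (0.848), all of the epithelial miR-200 family. Without the libraries out of place the first of them fell to 0.790, and miR-203a-3p took the place of miR-200b-3p. miR-203a-3p is on the squamous list, but its mean was highest in ileum (1601 CPM). For miR-7a-5p they were miR-376b-3p (0.868), miR-879-5p (0.865), miR-1843b-5p (0.863), miR-935 (0.862) and miR-376a-3p (0.857), and for miR-7b they were miR-344b-1-3p (0.974), miR-3099 (0.970), miR-3085 (0.966), miR-770-5p (0.962) and miR-3059-5p (0.956). With the libraries in place, miR-3084-3p (0.855) replaced miR-879-5p for miR-7a-5p, and miR-153-5p (0.961) replaced miR-3059-5p for miR-7b. Among members, miR-7a-5p had r = 0.9497 with miR-7a-2-3p, 0.869 with miR-7b, 0.750 with miR-7a-1-3p and 0.262 with miR-375-3p.

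Within the 10 pancreas libraries, miR-375-3p and miR-7a-5p had r = 0.509 on log2(CPM + 1) (permutation p = 0.133, adjusted over 5 relations 0.294), rho = 0.479 (permutation p = 0.167, adjusted 0.419) and r = 0.518 without the 2 libraries farthest from the median. miR-375-3p with the acinar miR-216a-5p had r = 0.464 (permutation p = 0.176, adjusted 0.294) and rho = 0.539 (permutation p = 0.114, adjusted 0.419), and r = 0.245 without the 2 farthest libraries. None of the 5 relations, which also included the RIN, was past the threshold on this scale. With upper quartile scaled levels the first had r = 0.814 (permutation p = 0.00318, adjusted 0.00795), rho = 0.815 (adjusted permutation p = 0.0229) and r = 0.756 without the 2 farthest libraries. The second had r = 0.875 (permutation p = 0.00129, adjusted 0.00645), rho = 0.794 (adjusted permutation p = 0.0229) and r = 0.743, in libraries that then also share the scaling factor.

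The 5p composite name was counted 370 times in 43 samples. Its most counted sequence differed from that of miR-7a-5p by A10G, so that it carried neither the base of miR-7a nor that of miR-7b there.
composite, most counted: uGGAAGACuggugauuuuguuguu
Its highest level, 31.4 CPM in cerebrum of rat 6, was 35.5 CPM in the run on D2C4RACXX lane 4 and 1.63 CPM in the run of the same library on another flow cell, where miR-7a-5p was 236 and 237 CPM. The next highest samples, duodenum rat 11, brainstem rat 11, cerebellum rat 11 and liver rat 5, were all on that lane, with 11.2, 10.5, 5.60 and 1.98 CPM there and 0 on the other flow cell. The calls of this composite in the contrasts of brain regions, duodenum and cerebrum above included these samples.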

How the data were processed

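Small RNA of rat tissues was sequenced by the authors on an Illumina instrument. Adapters were trimmed with cutadapt 1.4.1, reads were assigned by the miRDeep2 quantifier to miRBase hairpins of rat and other species, and custom scripts wrote tables of miRNAs and of isomiRs. Both deposited tables hold raw counts, and the authors applied no normalization to them. Per the study's methods, miRDeep2 also mapped the collapsed reads to the rat genome build RN5 for its predictions of further miRNAs. The coordinates printed here are those of RefSeq GRCr8, another build. Names that end in -pre (8 for these loci, 1403 counts) were left out.

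Of 458 runs, 14 were set aside as repeats of a lane and 444 were summed to 215 libraries and 207 samples, since a library was run on 2 flow cells. Of the isomiR table, 215 columns were used and 243 were not. Each count weighed 0.0564 to 2.66 CPM, and counting intervals cover counting error only. The quasi-likelihood test of edgeR 4.0.16 (R 4.3.3) was run over 1641 names with upper quartile scaling and Benjamini-Hochberg adjustment at 0.05, and over 1122 names for sex within tissue. DESeq2 1.42.0, TMM scaling, no filter, 1 flow cell alone, all runs, the libraries out of place left out, each rat left out and the rat as a block were alternatives. Leaving out the shifted lane, joining the block with the removal of the libraries out of place, that removal for shares, forms and neighbours, and each rat left out for forms were alternatives chosen after seeing the data. Equal rat numbers mark the same animal per the labels, and the median correlation of deviations was 0.0176 over 1808 pairs of samples of the same rat and -0.00485 over 16293 pairs of different rats. Data were also simulated for pancreas and adrenal alone, without the libraries out of place and with 1 fixed spread for all names. There edgeR recovered 96.9% of 96 names changed by 1 on the log2 scale and 100% of 88 changed by 2, over 476 names tested, with 3.72% false calls. The fit of all tissues over 1641 names differs in these settings, so the rates were not measured for it. Shares, forms and neighbours were compared within rats by exact sign-flip tests in scipy 1.17.1 under Python 3.11.15 (pandas 2.3.3, numpy 2.4.6), and relations by 100000 permutations. P-values of the sign-flip tests measure the spread of within-rat differences between animals. Those of edgeR rest, for each name, on 1 estimate of the spread shared over all tissues, with no block for the rat in the main fits. The SE of a contrast therefore also depends on libraries of other tissues, among them those out of place.

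Every member was described, with the acinar, epithelial, intestinal, neuronal, erythroid, squamous, smooth muscle, hepatocyte, gonadal and islet lists and, for miR-375-3p, miR-7a-5p and miR-7b, the 5 single mature names of at least 10 CPM in a tissue with the highest correlation. The members and lists were chosen with earlier results of these data known. Labels reading cortex and medulla were taken as kidney.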

Additional observations from a re-analysis of the deposited data

Results flagged for a closer look

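In 12 of 44 groups of 4 to 10 samples the highest or lowest level of miR-375-3p or miR-7a-5p stood apart by Dixon's criterion. Normally distributed values meet it in about 1 in 20 groups. It was applied to CPM without a log, and their distribution was not tested, so that rate may not hold here. Of the 12 groups, 6 were those in which the sample was a library out of place. For miR-375-3p these were adrenal rat 8 (11160 CPM, next 6210), hippocampus rat 6 (9275, next 445), ovary rat 11 (9237, next 599) and uterus rat 8 (11842, next 144). For miR-7a-5p they were adrenal rat 8, the lowest at 12.3 CPM with the next at 81.3, and uterus rat 8 (13.0, next 3.76).

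The other 6 were libraries in place. miR-375-3p was high in jejunum of rat 7 (6274 CPM, next 4520), soleus of rat 9 (17.4, next 6.19) and whole blood of rat 10 (12.2, next 5.27). miR-7a-5p was high in brainstem of rat 9 (373 CPM, next 112), cerebellum of rat 2 (63.9, next 47.7) and kidney medulla of rat 2 (6.37, next 4.71). In the brainstem of rat 9 the other miR-7 names were high as well, with miR-7b at 66.9 CPM, miR-7a-2-3p at 32.1 and miR-7a-1-3p at 29.9, and miR-7a-2-3p made up 51.8% of the 3p counts, the highest of 10 brainstem samples.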

How the results depend on the processing

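Of 1832 alternatives over 122 values, 1674 were classed as the same, 81 as weaker, 52 as stronger, 16 as moved and 9 as reversed. For a fold change, the same meant an equal direction and side of the threshold, or a changed sign with no call in either fit. For a count of calls it meant a change within a set factor, and for a level a shift under the SD. Correlations without the 2 farthest libraries were always classed as the same, so 1674 is not a count of kept calls. Without the libraries out of place the counts of member calls were 0 for the sexes, 0 for duodenum against jejunum, 0 for hippocampus against cerebrum and 5 for cerebellum against cerebrum, and log2 fold changes reversed for duodenum against jejunum (miR-7a-5p -0.45, miR-7b -0.12) and for miR-375-3p in hippocampus against cerebrum (-0.16) and against the rest in hippocampus (-3.51) and uterus (-0.29). Leaving out single rats reversed miR-375-3p against the rest in hippocampus (-1.91 without rat 6), ovary (-0.27 without rat 11) and uterus (-0.64 without rat 8). The values without each rat ran from -1.91 to 2.15 in hippocampus, -0.27 to 2.52 in ovary and -0.64 to 4.16 in uterus. On the flow cell D1GBMACXX alone the counts were 1 for the sexes, 2 for glandular against non-glandular stomach, 2 for duodenum against jejunum, 0 for brainstem against cerebrum and 1 for hippocampus against cerebrum. For the sexes DESeq2 gave 4, TMM scaling 5 and the totals without predicted names 4, and leaving out each rat gave 1 to 4. DESeq2 gave 1 for hippocampus against cerebrum and reversed miR-7a-1-3p in brainstem against the rest (0.63), and no filter gave 1 for brainstem against cerebrum. Hippocampus against cerebrum gave 1 to 2 with each rat left out. The cause was not tested where no library out of place was removed.

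With the rat as a block, 89 of 94 alternatives were classed as the same. The paired fit gave 1 call in place of 2 for hippocampus against cerebrum, and 0 there and 0 for duodenum against jejunum when the libraries out of place were also left out. It also moved calls of miR-7a-5p in brainstem against cerebrum (-0.96) and against the rest of miR-375-3p in hippocampus (0.90) and testis (1.29) and of miR-7a-1-3p in duodenum (0.32).

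A minimum of 100 counts left 0 called arm and paralog shares and 8 called form shares, with fewer libraries. Sequences with no mismatch gave 18 called form shares, and leaving out each rat 0 to 16, where fewer rats raise the smallest exact p. Without any of rats 2, 3, 4, 6, 7 and 11 none of the form tests was past the threshold. The total without the most counted name gave 10 called neighbours, and upper quartile scaled levels 2 called relations in the pancreas.

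Depth limits most the 2 composite names, with 370 and 3 counts in all, and miR-375-5p, with 63. Outside brain, levels of miR-7b and miR-7a-2-3p rest on few counts in most tissues, and a pancreas share of miR-7b on under 100 counts a library. The totals of testis are the lowest.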
